A study of Mus musculus with 30 samples.

Results

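Bone marrow-derived macrophages (BMDMs) of Mertk-/-V2 mice were compared with those of C57BL/6 wild-type (B6 WT) mice across all genes. The comparison holds the 3 libraries labelled with each genotype, which are 6 of the 12 BMDM libraries and 6 of all 30 libraries of the series, and they were chosen by their labels alone. Mertk-/-V2 mice lack exon 18 of Mertk, which codes for part of the kinase domain, on both alleles. The exon was removed in the germline with a tamoxifen-activated Cre expressed from Rosa26, from a floxed allele made in C57BL/6NJ embryos. Breeding to C57BL/6J then removed the Cre and left a genome that is mostly C57BL/6J with a smaller C57BL/6NJ share, although the labels give C57BL/6J as the strain of every BMDM library. B6 WT mice came from the Jackson Laboratories, carried no engineered allele and were bred in the same facility. The mice of both genotypes were age-matched adults, and their bone marrow cells had been grown for 7 days in medium conditioned by L929 cells, a fibroblast line that secretes the macrophage growth factor CSF1. BMDMs of 2 other knockout lines were sequenced beside them. In Mertk-/-V1 mice, made in 129P2 embryonic stem cells and later bred to C57BL/6J, exon 17 is deleted and a neomycin cassette remains. In Mertk-/-V3 mice, made by CRISPR in C57BL/6NJ eggs, exons 3 and 4 were targeted.

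MERTK is a receptor tyrosine kinase of the TAM family, with TYRO3 and AXL. Its ligands GAS6 and PROS1 bridge it to phosphatidylserine on dying cells, and macrophages use it to engulf such cells and to restrain inflammatory and interferon responses. The question behind the comparison is which transcripts differ in macrophages that carry a Mertk null allele from C57BL/6 embryos, with no chromosome 2 segment from another strain.

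Polyadenylated RNA was sequenced to 21187031 to 24869776 reads on genes in the B6 WT libraries and to 16629659 to 20979716 in the Mertk-/-V2 libraries. Values are given as normalized counts, that is, reads divided by the size factor of the library. The 8 macrophage markers summed to 329616 to 364621 normalized counts in B6 WT and 318005 to 355791 in Mertk-/-V2 libraries, and 0 of them passed the test described below. Markers of other cells were low in both genotypes: neutrophil markers summed to 484 in the lowest B6 WT library and 733 in the highest Mertk-/-V2 library. B cell markers summed to 49.3 to 65.5 and 46.5 to 56.5, and dendritic cell markers to 13.2 to 22.5 and 20.2 to 37.6. The defining genes Ly6g of neutrophils and Ncr1 of NK cells were at 0 in all 6 libraries. Osteoclast markers summed to 34.5 to 47.3 in B6 WT and 51.4 to 66.7 in Mertk-/-V2 libraries, without overlap, with Calcr at 0. Of these markers 3 were tested and 0 passed, and the 2 genotypes did not overlap in 22.7% of all genes tested. In bulk RNA, fewer cells of a type and less RNA per cell cannot be told apart.

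In Mertk-/-V2 BMDMs 618 of 13420 genes tested had changed (4.61%), with an adjusted p under 0.05 in limma on log2 values. Of these 301 were higher (2.24%) and 317 lower (2.36%). Most changes were small: 584 of the 618 (94.5%) differed by less than 2.38-fold, and 509 (82.4%) by less than 0.5 on the log2 scale. The median was 0.31 for the higher genes and -0.26 for the lower genes on the log2 scale, against 0.00 for all genes tested. Only 34 genes (0.253%) also passed that 2.38-fold threshold, which the study used for a differentially expressed gene (DEG), 27 higher and 7 lower. Of these, 18 are unnamed gene models, and the 16 named genes are 12 higher and 4 lower. In 613 of the 618 changed genes the 3 libraries of one genotype lay beyond all 3 of the other, which 22.7% of all genes tested did (10.1% higher and 12.7% lower). The number of changed genes depended on single libraries. Leaving out replicate 1 of B6 WT gave 148 (1.1%), and leaving out its replicate 2 gave 154 (1.15%). Of the Mertk-/-V2 libraries, leaving out replicate 1 gave 336 (2.5%) and leaving out replicate 3 gave 1168 (8.72%). The third B6 WT library and the second of Mertk-/-V2 mattered less, with 4.9% and 3.83% of genes changed when they were dropped. In the fits that each left out 1 of the 6 libraries, between 19 and 60 genes were DEGs, the fewest without B6 WT replicate 2 and the most without Mertk-/-V2 replicate 3. The labels call the libraries biological replicates without naming the animals. The p-values therefore measure a spread between samples, pooled over all 12 BMDM libraries of the fit. A fit of the 6 libraries alone, given at the end, called fewer genes.

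**Figure D1:**
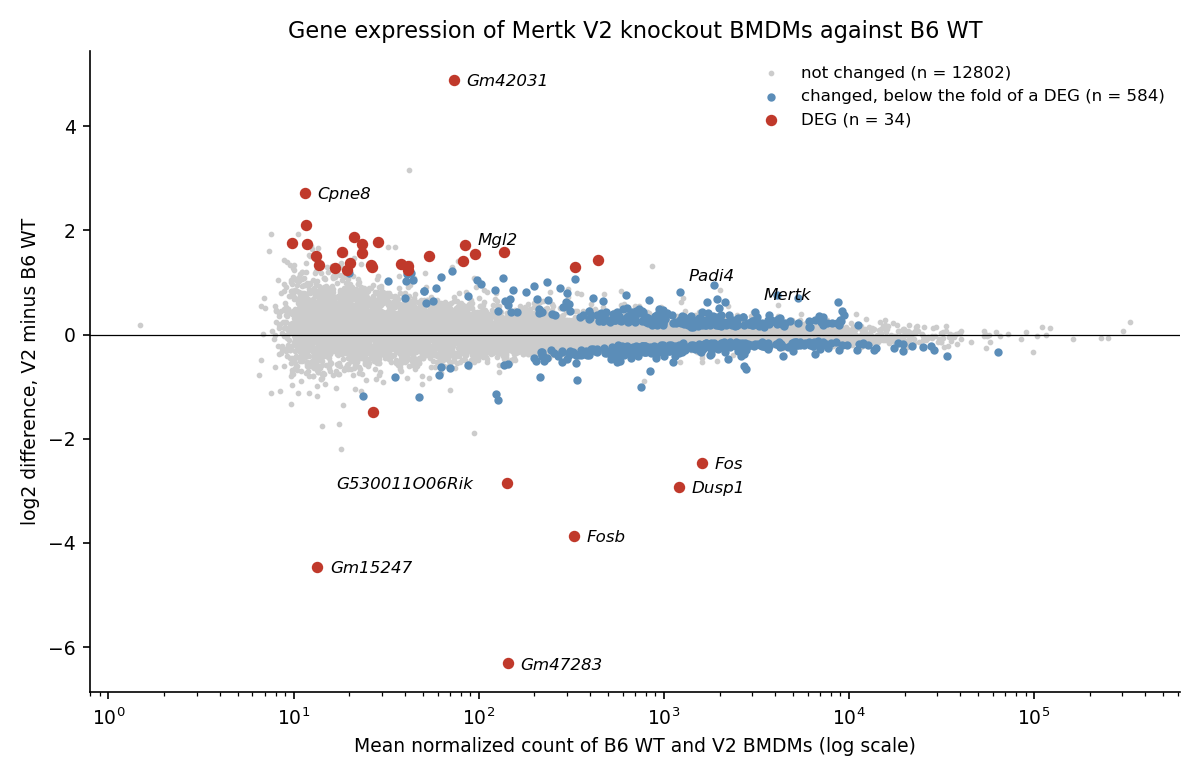
Difference between Mertk-/-V2 and B6 WT BMDMs for the 13420 genes tested, as the log2 fold change on the vertical axis against the mean normalized count on a log axis. The 34 DEGs and the other 584 changed genes are coloured, and most changed genes lie close to the line at 0.

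Mertk itself was counted at 2414, 2649 and 2881 normalized counts in the B6 WT libraries and at 3589, 3532 and 3579 in the Mertk-/-V2 libraries. All 3 libraries of the knockout were higher, by 0.43 ± 0.06 on the log2 scale (SE, n = 3 per group; limma adjusted p = 0.00129). The gene lies at chr2:128698956-128802894 of GRCm38. The count covers the whole gene and Mertk-/-V2 lacks 1 exon, so that it does not check the deletion. The means were 865 ± 18 (SD, n = 3) in Mertk-/-V1 and 687 ± 36.1 in Mertk-/-V3 BMDMs. Of the other family members, the receptor Axl had 141, 164 and 118 normalized counts in B6 WT and 166, 144 and 285 in Mertk-/-V2 libraries and did not pass (log2 difference 0.44 ± 0.24, adjusted p = 0.312). The ligands did not pass either, with a log2 difference of 0.03 ± 0.10 for Gas6 (adjusted p = 0.878), which was abundant at 38736 ± 2400 normalized counts in B6 WT, and -0.05 ± 0.07 for Pros1 (adjusted p = 0.765). Tyro3 had 4.93 to 6.84 normalized counts in B6 WT and 4.03 to 6.07 in Mertk-/-V2 libraries and was too low to be tested.

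Among named genes the 3 largest losses were of immediate early transcripts. These genes are switched on within minutes of a stimulus from factors already present in the cell, several through cyclic AMP response elements read by CREB and ATF proteins, and their mRNAs are short-lived. The 250 bases before the start sites of the 3 members that were DEGs are printed from RefSeq (GRCm38.p6), because they hold the core of that element, TGACG or its complement, in capitals. They lie at chr12:85473640-85473889 on the plus strand for Fos, at chr7:19310046-19310295 on the minus strand for Fosb and at chr17:26508473-26508722 on the minus strand for Dusp1.
Fos: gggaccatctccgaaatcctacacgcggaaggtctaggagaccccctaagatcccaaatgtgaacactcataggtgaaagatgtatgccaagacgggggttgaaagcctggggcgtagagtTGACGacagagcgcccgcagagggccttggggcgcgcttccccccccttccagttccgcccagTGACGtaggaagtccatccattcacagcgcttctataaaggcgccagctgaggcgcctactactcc
Fosb: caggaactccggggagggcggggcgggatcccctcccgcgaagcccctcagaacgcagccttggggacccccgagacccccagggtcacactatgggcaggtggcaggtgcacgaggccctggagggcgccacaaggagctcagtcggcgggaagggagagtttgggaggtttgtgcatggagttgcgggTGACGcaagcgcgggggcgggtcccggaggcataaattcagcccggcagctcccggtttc
Dusp1: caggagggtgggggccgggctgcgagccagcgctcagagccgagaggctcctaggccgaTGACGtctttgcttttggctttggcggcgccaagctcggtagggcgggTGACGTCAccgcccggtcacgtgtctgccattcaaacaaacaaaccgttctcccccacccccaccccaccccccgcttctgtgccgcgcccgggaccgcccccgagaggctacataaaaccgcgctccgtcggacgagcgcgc
The letters TGACG, searched on both strands, were in 5836 of 32851 such windows (17.8%), and in 13 of the 21 members of the immediate early list that had a window: 5 of the 8 lower members, 1 higher member, 6 that did not pass and 1 that was not tested. The full palindrome TGACGTCA, which contains TGACG on both strands, was in 1.55% of all windows and in those of Dusp1, Btg2 and Maff. A list member was counted if any of its windows held the letters, whereas the background counts single windows. The 2 shares are therefore not directly comparable.

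Fos, a subunit of the AP-1 transcription factor, had 3038, 2377 and 2793 normalized counts in B6 WT and 520, 476 and 483 in Mertk-/-V2 BMDMs. It was 5.52-fold lower (log2 fold change -2.46 ± 0.15, adjusted p = 8.88e-07), and the lowest B6 WT library was far above the highest Mertk-/-V2 library. Fosb, a second AP-1 subunit, had 567, 512 and 768 against 35.2, 32.3 and 59.8, a 14.5-fold lower level (-3.86 ± 0.32, adjusted p = 2.19e-05). Dusp1, a phosphatase that switches off MAP kinases, had 2322, 1995 and 2099 against 313, 249 and 281 and was 7.60-fold lower (-2.93 ± 0.12, adjusted p = 1.34e-08). Another gene, Ergic1, overlaps Dusp1 on the other strand, and the counting is not stated to use strand.

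**Figure D2:**
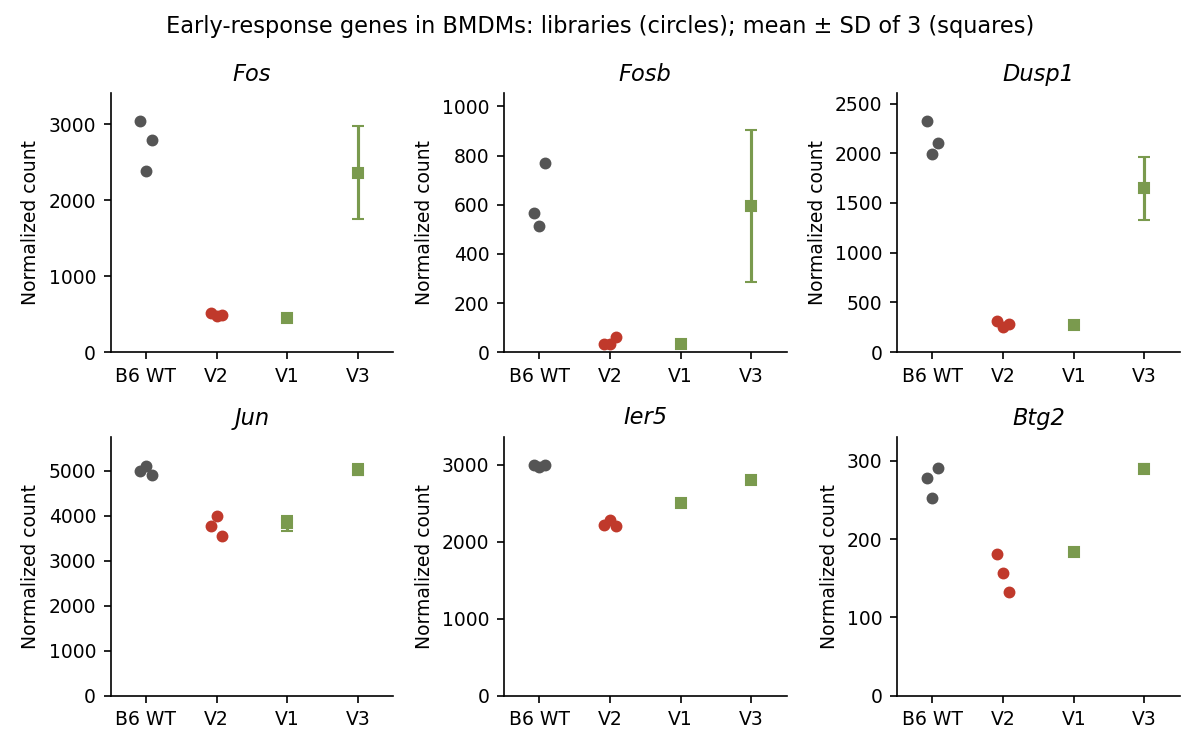
Normalized counts of 6 immediate early genes in BMDMs, with 1 panel per gene on linear axes from 0; circles are the single libraries of B6 WT and Mertk-/-V2 (V2), and squares with bars are the mean ± SD of the 3 libraries of Mertk-/-V1 (V1) and Mertk-/-V3 (V3). For Fos the Mertk-/-V2 libraries lie between 476 and 520 and the B6 WT libraries between 2377 and 3038.

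Of the 24 members of the immediate early list that were tested, 10 changed (41.7%), 8 lower and 2 higher, and the median was -0.11. The smaller losses were in Btg2, an antiproliferative factor (278, 252 and 291 against 181, 157 and 133; -0.81 ± 0.11, adjusted p = 0.0011), in Jun, the AP-1 partner of Fos (4991, 5097 and 4904 against 3783, 3995 and 3555; -0.41 ± 0.05, adjusted p = 0.00039), and in Ier5 (-0.42 ± 0.04, adjusted p = 2.8e-05). The other 2 lower members were outside the rule for naming genes and were picked after their values were seen: Zfp36, which codes for a protein that destabilises cytokine mRNAs (-0.60 ± 0.09, adjusted p = 0.00179), and the transcription factor Klf2 (-0.52 ± 0.09, adjusted p = 0.00769). Not every member fell. Myc rose from 2111, 1908 and 1860 to 2327, 2620 and 2645 (0.37 ± 0.06, adjusted p = 0.00311), and Atf3, a stress-induced repressor, rose by 0.29 ± 0.05 (adjusted p = 0.00963). Among members that did not pass, also named after their values were seen, Egr1 had 455, 262 and 340 normalized counts in B6 WT and 478, 697 and 621 in Mertk-/-V2 libraries (adjusted p = 0.0916) and Junb 1410, 1348 and 1279 against 1150, 1177 and 1378 (adjusted p = 0.372). Leaving out any 1 of the 6 libraries left 9 to 11 changed members.

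The same 3 genes were measured in the other knockout lines, whose comparisons share the B6 WT libraries with that of Mertk-/-V2. Mertk-/-V1 BMDMs had 450 ± 53.9 normalized counts of Fos (SD, n = 3), 34.0 ± 7.67 of Fosb and 271 ± 18.1 of Dusp1. The direct difference between Mertk-/-V2 and Mertk-/-V1 did not pass for any of them (log2 differences of 0.14 ± 0.15, 0.28 ± 0.32 and 0.05 ± 0.12, adjusted p = 0.844, 0.855 and 0.947). Mertk-/-V3 BMDMs had 2363 ± 608 of Fos, 595 ± 309 of Fosb and 1649 ± 316 of Dusp1, and there the difference did pass (-2.23 ± 0.15, -3.71 ± 0.32 and -2.54 ± 0.12, with adjusted p = 1.1e-06, 1.99e-05 and 2.27e-08). Klf2 differed between Mertk-/-V2 and Mertk-/-V1 as well, at 779, 950 and 1040 in Mertk-/-V2 and 611 ± 30.6 in Mertk-/-V1 BMDMs (0.59 ± 0.09, adjusted p = 0.00812).

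In the amino acid and endoplasmic reticulum (ER) stress list 13 of 28 tested members changed (46.4%), 6 higher and 7 lower, and the median was 0.06. As background, the list holds targets of ATF4, which include genes that import and make amino acids when supply runs short, and genes that ATF6 and XBP1 induce when unfolded protein builds up, which include ER chaperones. The window before the start site is shown for the 3 chaperone genes that hold the ER stress element, CCAAT and CCACG with 9 bases of any kind between them, or its complement (CCAAT and CCACG in capitals), and for Chac1, which holds the composite C/EBP-ATF site TGATGCAA that ATF4 reads (in capitals as its complement). They are chr2:34771840-34772089 (plus strand) for Hspa5, chr10:86705445-86705694 (minus) for Hsp90b1, chr15:88819396-88819645 (plus) for Creld2 and chr2:119350992-119351241 (plus) for Chac1.
Hspa5: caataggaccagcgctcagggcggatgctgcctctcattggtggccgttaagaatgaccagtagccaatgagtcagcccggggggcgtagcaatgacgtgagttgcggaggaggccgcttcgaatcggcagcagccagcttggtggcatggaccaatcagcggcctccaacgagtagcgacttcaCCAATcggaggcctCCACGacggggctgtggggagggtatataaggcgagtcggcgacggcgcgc
Hsp90b1: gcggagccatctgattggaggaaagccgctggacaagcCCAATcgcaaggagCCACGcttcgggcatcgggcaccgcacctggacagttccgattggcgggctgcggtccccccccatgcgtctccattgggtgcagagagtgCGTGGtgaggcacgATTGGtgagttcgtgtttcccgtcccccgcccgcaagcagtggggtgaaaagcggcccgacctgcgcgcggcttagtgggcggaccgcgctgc
Creld2: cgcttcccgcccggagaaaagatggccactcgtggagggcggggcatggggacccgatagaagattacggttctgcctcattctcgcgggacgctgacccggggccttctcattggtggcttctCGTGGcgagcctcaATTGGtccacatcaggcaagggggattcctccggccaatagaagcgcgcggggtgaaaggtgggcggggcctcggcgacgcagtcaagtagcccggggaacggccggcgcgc
Chac1: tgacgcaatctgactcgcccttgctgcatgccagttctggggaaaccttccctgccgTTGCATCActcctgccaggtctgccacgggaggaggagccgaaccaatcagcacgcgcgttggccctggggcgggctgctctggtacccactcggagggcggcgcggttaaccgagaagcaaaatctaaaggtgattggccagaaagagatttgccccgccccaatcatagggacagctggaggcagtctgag
The ER stress element was in 37 of 32851 windows (0.113%) and in 3 of the 26 list members with a window, which were 3 of the 6 lower members with a window. The C/EBP-ATF site was in 0.791% of all windows and in 4 list members, of which Chac1 was higher, Herpud1 and Nupr1 did not pass and Vldlr was not tested. Here too members were counted by any of their windows and the background by single windows.

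The 6 members that rose were Slc7a5, Asns, Trib3, Chac1, Aldh1l2 and Phgdh. Slc7a5, the large neutral amino acid transporter, went from 1636, 1592 and 1834 normalized counts in B6 WT to 2310, 2720 and 2744 in Mertk-/-V2 BMDMs (0.62 ± 0.07 on the log2 scale, adjusted p = 0.00052). Asns, asparagine synthetase, went from 1247, 1201 and 1251 to 1468, 1652 and 1637 (0.36 ± 0.06, adjusted p = 0.00313). Trib3, a pseudokinase induced by ATF4, had 139, 146 and 181 against 346, 328 and 267, a 2.01-fold higher level (adjusted p = 0.00112). In these 3 genes the groups did not overlap, nor in Chac1 and Aldh1l2, as in 22.7% of all genes tested. Chac1, which degrades glutathione, was higher by 1.23 ± 0.31 (53.4, 30.2 and 43.0 against 64.3, 117 and 123; adjusted p = 0.0433), Aldh1l2, a mitochondrial folate enzyme, by 0.75 ± 0.19 (adjusted p = 0.041) and Phgdh, the first enzyme of serine synthesis, by 0.28 ± 0.07 (adjusted p = 0.0377). These last 3 calls were lost in 5, 3 and 4 of the 6 fits that left out 1 library. Slc7a11, the cystine transporter, which the NRF2 list holds, was low but a DEG (22.2, 11.4 and 11.7 against 32.8, 29.2 and 52.2; 1.30 ± 0.34, adjusted p = 0.0484), a call lost in every one of those fits. The mRNA of Atf4 itself, looked up after the others were seen, did not pass, at 5450, 5130 and 5129 in B6 WT against 5128, 5637 and 5899 (adjusted p = 0.373).

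The 7 members that fell were Hspa5, Hsp90b1, Creld2, Pdia4, Manf, Sdf2l1 and Xbp1. Hspa5, the main chaperone of that compartment, fell from 31152, 31803 and 32189 normalized counts in B6 WT to 26296, 25815 and 25784 in Mertk-/-V2 BMDMs (-0.29 ± 0.04, adjusted p = 0.00263). Hsp90b1, its HSP90-type chaperone, fell from 15133, 15458 and 14787 to 12580, 11813 and 12685 (-0.29 ± 0.04, adjusted p = 0.00215). Creld2 went from 1265, 1342 and 1253 to 992, 1013 and 1007 (-0.36 ± 0.05, adjusted p = 0.00151). The levels left were 81.9%, 81.7% and 78.1% of those in B6 WT. No library of one group entered the range of the other, as in 22.7% of all genes tested. The disulfide isomerase Pdia4 (-0.31 ± 0.05), the secreted factor Manf (-0.33 ± 0.06) and the chaperone partner Sdf2l1 (-0.19 ± 0.04) fell as well, with adjusted p of 0.00332, 0.00994 and 0.00963. The last of the 7, the transcription factor Xbp1, named after its values were seen, fell by 0.17 ± 0.05 (adjusted p = 0.0488). Pdia6, a disulfide isomerase outside the list, fell by 0.30 ± 0.04 (adjusted p = 0.0011). Leaving out 1 library left 8 to 12 changed members of the list, and a fit of the 6 libraries alone left 4.

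**Figure D3:**
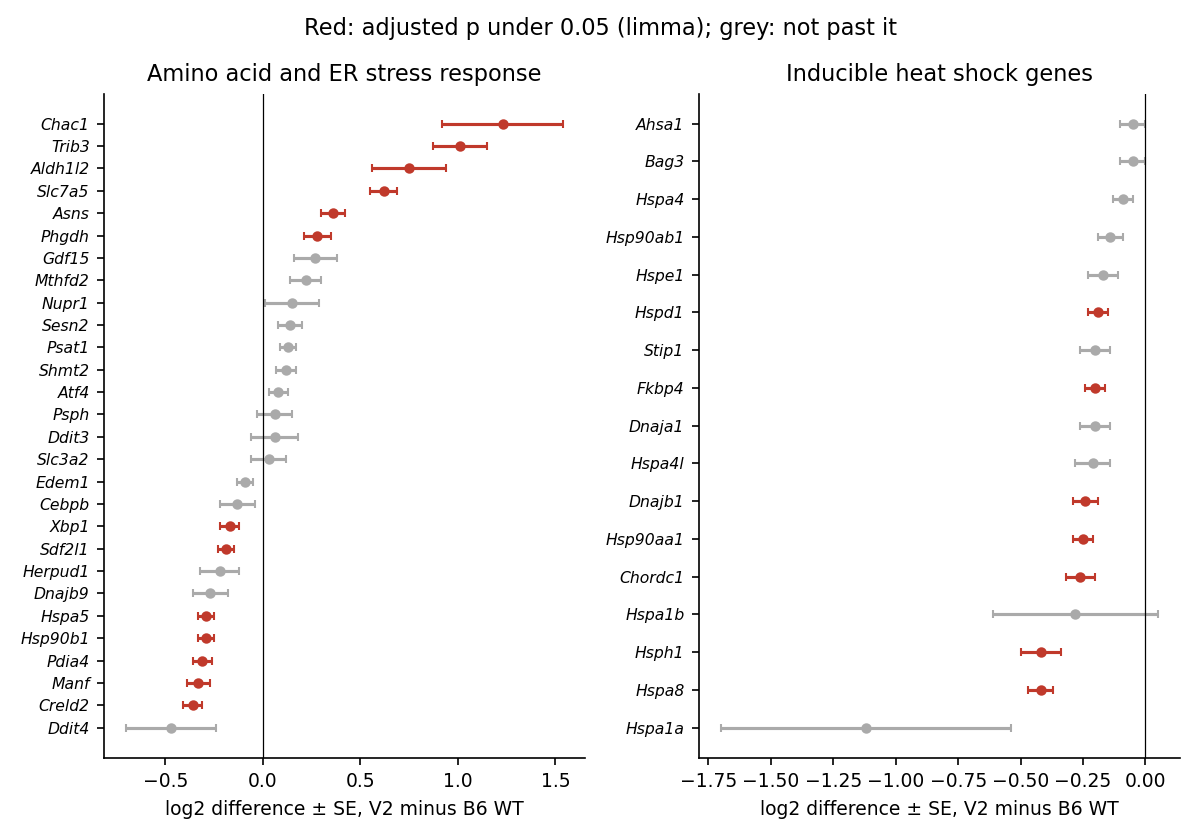
Log2 difference of Mertk-/-V2 (V2) against B6 WT BMDMs on the horizontal axis for the 28 tested members of the amino acid and ER stress list and the 17 of the heat shock list; bars are standard errors, red marks changed genes and grey the others. Hspa5, Hsp90b1, Creld2 and all 17 heat shock genes lie below 0, and Slc7a5, Asns, Trib3 and Chac1 lie above it.

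In the list of inducible heat shock genes, which code for chaperones of the cytosol and mitochondria, the changed members were lower. Of 17 tested, 7 fell (41.2%), 0 rose, and all 17 were below 0 with a median of -0.20. Hspa8, a constitutively expressed HSP70 of the list, went from 39263, 39338 and 38050 normalized counts to 28517, 30129 and 28759 (-0.42 ± 0.05, adjusted p = 0.000277). Hsph1, an HSP110 exchange factor, had 1182, 1164 and 1072 against 771, 785 and 1012 (-0.42 ± 0.08, adjusted p = 0.0145), and Hsp90aa1 8266, 8382 and 8586 against 6793, 7019 and 7447 (-0.25 ± 0.04, adjusted p = 0.00934). In each of them every Mertk-/-V2 library was below every B6 WT library, as in 12.7% of all genes tested. When either replicate 1 or replicate 2 of B6 WT was left out, 2 members passed.

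Small losses were also counted in energy metabolism and the cell cycle. In the glycolysis and hypoxia list 5 of 26 members fell (19.2%) and 0 rose, the median being -0.15: Pgk1 went from 21790, 22686 and 21082 to 17411, 17935 and 17215 (-0.32 ± 0.05, adjusted p = 0.00309), and Tpi1, Ldha, Pfkl and Aldoa fell by 0.22 to 0.27. Of 73 subunits of oxidative phosphorylation 7 fell (9.59%) and 0 rose, and 71 were below 0 with a median of -0.12; Cox6c of complex IV fell by 0.23 ± 0.04 (adjusted p = 0.0142). Of 37 cell cycle genes 6 fell (16.2%) and 0 rose, with a median of -0.15, among them the topoisomerase Top2a (9910, 10018 and 9309 against 7404, 7475 and 8965; -0.30 ± 0.07, adjusted p = 0.0232) and the inhibitor Cdkn1a, which restrains division (-0.28 ± 0.04, adjusted p = 0.000779). These 3 counts rested on single libraries, with 1 to 13, 0 to 12 and 1 to 17 changed members when 1 library was left out. The lowest counts came without B6 WT replicate 1 or 2, and without Mertk-/-V2 replicate 1 for the cell cycle. The highest came without Mertk-/-V2 replicate 3 for glycolysis and the cell cycle and without B6 WT replicate 3 for oxidative phosphorylation.

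A pair of secreted monocyte attractants rose. Ccl7, a chemokine for monocytes, had 4102, 3982 and 3909 normalized counts in B6 WT and 6073, 6932 and 6666 in Mertk-/-V2 BMDMs, a 1.64-fold higher level (log2 fold change 0.71 ± 0.06, adjusted p = 2.19e-05). Its neighbour Ccl2, on chromosome 11, had 7843, 7980 and 7442 against 10217, 10442 and 11182 (0.45 ± 0.05, adjusted p = 0.000192). In the fit of all libraries they were the only members of the chemokine list to pass among 20 tested (10%). The list median was -0.04 (0.13 and 0.07 when the replicate 3 of B6 WT or of Mertk-/-V2 was left out). Both genes passed in each fit that left out 1 library. Without Mertk-/-V2 replicate 3, 9 of the 20 members passed, 7 higher and 2 lower, where 8.72% of all genes tested did. Without B6 WT replicate 3, 3 passed, all higher, and each other fit that left out a library gave 2. DESeq2 called 4 of 19, all higher, array quality weights gave 5 of 20, all higher, and edgeR called 2. Ccl7 and Ccl2 were at 6095 ± 477 and 10515 ± 496 in Mertk-/-V1 BMDMs, where the direct difference did not pass (adjusted p = 0.687 and 0.966). Ccl7 and Ccl2 were at 3829 ± 33.0 and 7684 ± 104 in Mertk-/-V3 BMDMs, below Mertk-/-V2 by 0.77 ± 0.06 and 0.47 ± 0.05 (adjusted p = 4.49e-06 and 0.00012).

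Other genes of inflammation and macrophage activation changed one by one. The share of tested members that changed was 12.5% for inflammatory mediators, 11.8% for alternative activation and 9.52% for NF-kappaB and SOCS feedback. It was 3.85% for Toll-like receptors and sensors and 7.41% for apoptotic cell uptake, against 4.61% of all genes tested. Of 16 inflammatory mediators tested, Csf1, the macrophage growth factor (122, 110 and 172 against 335, 279 and 175; 0.93 ± 0.21, adjusted p = 0.026), and the inflammasome sensor Nlrp3 (2658, 2624 and 2969 against 3486, 3528 and 2925; 0.27 ± 0.07, adjusted p = 0.0428) passed. In Mertk-/-V2 replicate 3 Csf1 was just above the highest B6 WT library and Nlrp3 within the B6 WT range, and both calls were lost in 4 of the 6 fits that left out a library. The same library stood apart in Mgl2, a lectin of alternative activation and a DEG (32.9, 19.6 and 65.5 against 181, 141 and 63.6; 1.72 ± 0.40, adjusted p = 0.0287), while the haemoglobin scavenger receptor Cd163 had 898, 879 and 1103 against 1282, 1299 and 1156 (0.38 ± 0.08, adjusted p = 0.023). These 2 were the members of the alternative activation list to pass, of 17 tested, and both calls were lost in 4 of the 6 fits that left out a library, where 0 members passed. In the NF-kappaB and SOCS feedback list 2 of 21 passed, the TNF-induced Tnfaip2 (0.34 ± 0.05, adjusted p = 0.00262) and the deubiquitinase Tnfaip3 (0.26 ± 0.07, adjusted p = 0.0442), whose call was lost in 5 of those 6 fits. Of 26 Toll-like receptors and sensors the adaptor Ticam1 fell (886, 818 and 982 against 704, 698 and 731; adjusted p = 0.0147), and 0 rose. Of 27 tested members of the list of apoptotic cell uptake and scavenger receptors, the phosphatidylserine-binding receptor Cd300lf rose (643, 673 and 595 against 849, 926 and 1332, log2 difference 0.67 ± 0.14, adjusted p = 0.0186). Jmjd6 fell (-0.24 ± 0.06, adjusted p = 0.0377), and being listed does not show that it acts in uptake. These calls were lost in 2 and 4 of the 6 fits, and the list had 0 changed members when replicate 1 or 2 of B6 WT was left out and 6 when Mertk-/-V2 replicate 3 was.

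Among moderate changes with the smallest adjusted p, several genes were lower. Igf2bp3, an RNA-binding protein, fell from 185, 175 and 177 to 80.1, 63.5 and 82.6 (2.37-fold lower, just short of a DEG, adjusted p = 0.0001), and Tsc22d3, a glucocorticoid-induced gene also known as GILZ, from 945, 1021 and 1144 to 657, 699 and 566 (-0.69 ± 0.09, adjusted p = 0.000706). Il10ra, a chain of the interleukin-10 receptor, fell from 1282, 1313 and 1327 to 1060, 923 and 961 (-0.42 ± 0.05, adjusted p = 0.000988). Each of these losses, and that of Fads3 given next, kept its groups apart, as 22.7% of all genes tested did. Fads3, of the fatty acid desaturase family, fell from 159, 165 and 189 to 80.1, 87.7 and 64.6 (-1.14 ± 0.13, adjusted p = 0.000277). The tubulin Tuba1b (-0.38 ± 0.04), the ubiquitin ligase Uhrf2 (-0.39 ± 0.04) and the leucine zipper factor Cebpg (-0.45 ± 0.06) fell too.

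Moderate gains covered receptors, signalling and RNA genes. Padi4, which converts arginine to citrulline in histones, rose from 872, 833 and 957 normalized counts to 1504, 1567 and 1623 (0.82 ± 0.07, adjusted p = 2.8e-05), and the leukocyte receptor gene Lilr4b from 6480, 6723 and 7276 to 10504, 9968 and 11214 (0.63 ± 0.07, adjusted p = 0.000262). Lilr4b has near-identical paralogs, so its reads may be split with them. Dusp4, a MAP kinase phosphatase like Dusp1, moved the other way from it, from 763, 867 and 849 to 1139, 1157 and 1164 (0.48 ± 0.05, adjusted p = 0.000277). The inhibitor of differentiation Id2 rose from 1658, 1679 and 1588 to 2240, 2216 and 2570 (0.51 ± 0.06, adjusted p = 0.000328). The noncoding RNA genes Firre (208, 226 and 227 against 363, 358 and 427; 0.79 ± 0.09) and Mir22hg (172, 196 and 216 against 361, 342 and 374; 0.89 ± 0.10) rose, as did Leng8 (0.63 ± 0.08), Clasrp, a splicing-associated gene (0.43 ± 0.06), and Rasgef1b (0.43 ± 0.04). Of 17 clock genes tested, the repressor Nr1d2 (0.44 ± 0.08, adjusted p = 0.011) and Per1 (0.29 ± 0.06, adjusted p = 0.0191) rose and 0 fell. Of 21 genes of lipid uptake and oxidation Cpt1a, which admits fatty acids to mitochondria, rose (0.37 ± 0.08, adjusted p = 0.0233). These were 11.8% of the clock list and 4.76% of the lipid list, against 4.61% of all genes tested.

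Interferon-stimulated genes lay mostly above 0 without passing the test. Of 43 tested, 41 were above 0 and the median was 0.53, against 0.00 for all genes, and 0 changed in limma. At an unadjusted p under 0.05 there were 15, where 21.4% of all genes tested had such a p. Of the other tests, edgeR's quasi-likelihood test called 0 (4.2% of all genes in that test), and DESeq2 called 4 (7.32% of all genes), all higher. Array quality weights, which also called more of all genes, gave 15 of 43, all higher, with a median of 0.72. Quantile normalization, a block for replicate number and a fit of the 6 libraries alone gave 0. The values differed between the Mertk-/-V2 libraries. Relative to the B6 WT mean, the median of the 43 genes was 0.94 in Mertk-/-V2 replicate 1, 0.71 in replicate 2 and -0.14 in replicate 3, and it was -0.20, -0.16 and 0.41 in the B6 WT libraries, so that the groups overlapped. Without Mertk-/-V2 replicate 3, 26 of the 43 passed, all higher, where 8.72% of all genes tested did. Without Mertk-/-V2 replicate 1, 0 passed and the median was 0.19. Members named after their values were seen show the same: Irf7, the factor that drives type I interferon genes, had 185, 150 and 285 normalized counts in B6 WT and 564, 408 and 218 in Mertk-/-V2 libraries, Oas3, an antiviral RNA sensor, 366, 324 and 525 against 1189, 699 and 420, and Ifit1, which binds foreign RNA, 32.9, 29.3 and 49.8 against 187, 82.7 and 48.4. Outside that list the immunity-related GTPase Iigp1 was a DEG (6.58, 8.15 and 6.84 against 66.7, 26.2 and 13.3; 1.87 ± 0.48, adjusted p = 0.0428), a call lost in 5 of the 6 fits that left out a library. Mertk-/-V1 libraries had medians of 0.49 to 0.59 and Mertk-/-V3 libraries of 0.33 to 0.95, and 0 of the 43 differed between Mertk-/-V2 and either of them.

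**Figure D4:**
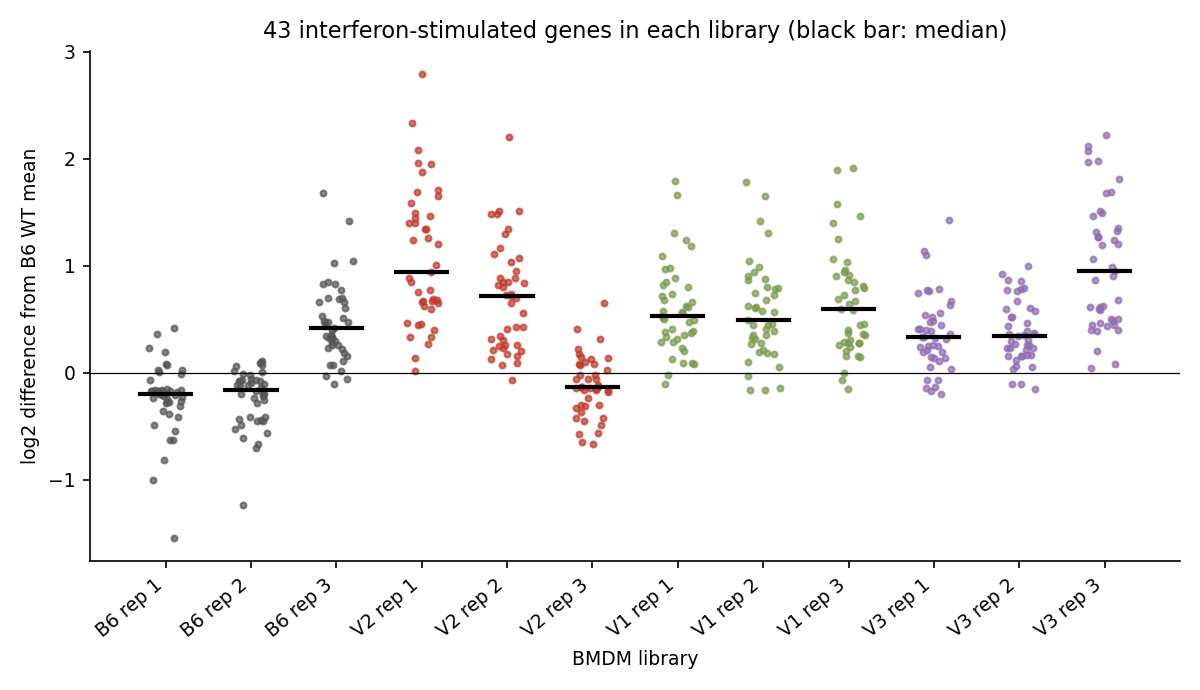
Log2 level of 43 interferon-stimulated genes in each of the 12 BMDM libraries relative to the B6 WT mean, with the median of each library marked. Replicates 1 and 2 of Mertk-/-V2 have medians of 0.94 and 0.71, and replicate 3 has -0.14.

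Some changes lay in neighbouring genes. On the distal X chromosome, where the boundary of the pseudoautosomal region runs through Mid1 in C57BL/6 mice, and in the matching part of the Y annotation, 3 gene models were DEGs with lower levels in Mertk-/-V2 BMDMs. Gm47283 (chrY:90784738-90816464) had 280, 202 and 370 normalized counts in B6 WT and 1.21, 3.03 and 3.80 in Mertk-/-V2 libraries, a 79.1-fold lower level (adjusted p = 9.02e-07). Gm15247 (chrX:169985801-169986939) had 27.1, 24.5 and 28.3 against 0, 0 and 0.95, and was at least 8.40-fold lower, with 3 reads per library as the floor. G530011O06Rik (chrX:169975043-169978917), which Mid1 overlaps on the other strand, had 248, 174 and 330 against 34.0, 33.3 and 31.3 (-2.85 ± 0.25, adjusted p = 4.04e-05). The levels differed between knockouts: Gm47283 was at 321 ± 42.9 in Mertk-/-V1 and 161 ± 96.1 in Mertk-/-V3, and G530011O06Rik at 283 ± 58.7 and 10.6 ± 3.51. Repeated sequence in this region can share reads between X and Y copies. The Y-linked genes Ddx3y, Eif2s3y, Kdm5d and Uty had 0 to 1.21 normalized counts in the 6 libraries, and Xist was counted in all 6 libraries (3030, 2920 and 4070 in B6 WT, 5677, 3829 and 5456 in Mertk-/-V2; adjusted p = 0.0906).

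On chromosome 19, Ide (chr19:37268743-37337852), the insulin-degrading enzyme, had 3415, 3131 and 3653 normalized counts in B6 WT and 2300, 2168 and 1997 in Mertk-/-V2 BMDMs (-0.66 ± 0.08, adjusted p = 0.000631). Fgfbp3, on the same chromosome (chr19:36917550-36919615), fell by 0.64 ± 0.15 (adjusted p = 0.0321), a call lost in every fit that left out a library. Btaf1, which lies between them and was picked after its values were seen, fell by 0.34 ± 0.08 (adjusted p = 0.0267). Cpeb3 and March5, also tested between them, did not pass (0.20 ± 0.10 and -0.01 ± 0.06, adjusted p = 0.271 and 0.939). In RPE the losses of Ide and Fgfbp3 were not seen: the normalized count of Ide was 3777 ± 677 for B6 WT and 5444 ± 228 for Mertk-/-V2 (0.55 ± 0.19, adjusted p = 0.766), and that of Fgfbp3 was 132 ± 36.3 and 220 ± 27.3 (0.77 ± 0.24, adjusted p = 0.679). Ide was at 1784 ± 112 in Mertk-/-V3 BMDMs, which come from C57BL/6NJ eggs, and at 2875 ± 312 in Mertk-/-V1 BMDMs. Nnt, which is disrupted in C57BL/6J, had 0.95 to 9.70 normalized counts in the 6 libraries. Within 2 Mb of Mertk 3 of 58 other genes tested changed (5.17%), a share near the 4.61% of all genes. They were the phosphate transporter Slc20a1 (2186, 2127 and 2257 against 2481, 2474 and 2514; 0.19 ± 0.04, adjusted p = 0.0222), the transcript 9830144P21Rik that overlaps it on the other strand (4.93, 13.0 and 14.7 against 36.4, 29.2 and 41.8; 1.74 ± 0.34) and Fastkd5 (-0.59 ± 0.16, adjusted p = 0.0499). The Fastkd5 call was lost in every fit that left out a library, and that of Slc20a1 when replicate 1 or 2 of B6 WT was left out. The counting is not stated to use strand, so reads of the overlapping pair cannot be told apart.

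Most of the remaining named DEGs were low in B6 WT BMDMs and higher in Mertk-/-V2. Arhgef18, a guanine nucleotide exchange factor, had 68.2, 57.9 and 79.1 against 193, 204 and 220 (1.58 ± 0.18, adjusted p = 0.000298). The protocadherin Pcdhac2, whose gene model spans others of its cluster, had 39.5, 53.0 and 52.8 against 154, 163 and 112 (1.54 ± 0.19, adjusted p = 0.000617), and Camk2b, a subunit of a calmodulin-dependent kinase, 22.2, 31 and 30.3 against 80.1, 69.6 and 92.1 (1.51 ± 0.22, adjusted p = 0.00191). These 3 did not overlap, nor did Bmpr1a and Cpne8, given next, as in 22.7% of all genes tested. Bmpr1a, a receptor for bone morphogenetic proteins, had 18.1, 30.2 and 15.6 against 69.1, 47.4 and 48.4 (1.36 ± 0.26, adjusted p = 0.0123). Cpne8, a copine, had at most 3 reads in each B6 WT library and 24.3, 21.2 and 17.1 normalized counts in Mertk-/-V2, at least 7.97-fold higher. Cpne8, Bmpr1a, Arhgef18 and Pcdhac2 were at 21.6 ± 0.679, 69.5 ± 11.2, 192 ± 9.41 and 152 ± 27.6 in Mertk-/-V1, with no direct difference past the test (adjusted p = 0.985, 0.771, 0.923 and 0.942), whereas their direct differences from Mertk-/-V3 passed (3.5 ± 0.44, 1.73 ± 0.26, 1.44 ± 0.18 and 1.06 ± 0.19). Camk2b was instead highest in Mertk-/-V3, at 148 ± 12.1, with Mertk-/-V2 below it (-0.88 ± 0.22, adjusted p = 0.0447). In Mertk-/-V1 Camk2b was at 53.1 ± 17.3, and the direct difference did not pass (adjusted p = 0.45). Ager, Tnfsf13, Sptbn5 and Olfr111, all with under 100 normalized counts in each library, rose 2.38-fold to 2.59-fold, each a call lost in 3 or more fits that left out a library. Tmem267 fell from 29.6, 43.2 and 46.9 to 10.9, 12.1 and 18. The noncoding Gm42031 had 195, 7.06 and 234 normalized counts in Mertk-/-V2 libraries, at least 55.6-fold more on average than the floor for B6 WT, with 1 Mertk-/-V2 library far below the other two, and 736 ± 111 in Mertk-/-V3 BMDMs.

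Direct comparisons asked which of the changes set Mertk-/-V2 apart from the other knockouts. Against the same B6 WT libraries, 949 genes changed in Mertk-/-V1 (7.07%) and 157 in Mertk-/-V3 BMDMs (1.17%). Mertk-/-V2 differed from Mertk-/-V1 in 49 genes (0.365%) and from Mertk-/-V3 in 424 (3.16%). Of the 618 changed genes 15 differed from Mertk-/-V1, 182 from Mertk-/-V3 and 12 from both. Apart from Mertk and the 3 models of distal X and Y, these 12 include Padi4, higher than in Mertk-/-V1 by 0.42 ± 0.07 (adjusted p = 0.0147) and than in Mertk-/-V3 by 0.87 ± 0.07 (adjusted p = 1e-05). Slc7a5 was likewise higher by 0.47 ± 0.07 and 0.64 ± 0.07 (adjusted p = 0.00877 and 0.00038). Fads3, at 207 ± 6.15 in Mertk-/-V1 and 177 ± 12.2 in Mertk-/-V3, was lower by 1.41 ± 0.13 and 1.19 ± 0.13 (adjusted p = 3.05e-05 and 0.00016). A further 4 were named after their values were seen. Klf2, given above, and Gdf3, a TGF-beta family ligand (443, 431 and 440 in B6 WT, 235, 224 and 258 in Mertk-/-V2, 926 ± 101 in Mertk-/-V1 and 128 ± 22.9 in Mertk-/-V3), lay between the other knockouts, while Armc7 (-0.37 ± 0.07 against B6 WT) and Rnf169 (-0.20 ± 0.05) were lower than in both.

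In the RPE of P25 mice, with 3 Mertk-/-V2 and 6 B6 WT libraries, 13 of 18832 genes changed (0.069%). Of the 608 genes changed in BMDMs and tested in RPE, 2 changed there: Gm47283 (-7.90 ± 0.49, adjusted p = 3.15e-07) and Gm15247 (-4.14 ± 0.45, adjusted p = 0.000692), in the same direction. Mertk counts were 3202 ± 454 in B6 WT and 4229 ± 945 in Mertk-/-V2 RPE, and the difference did not pass (0.39 ± 0.25, adjusted p = 0.954). Fos was at 240 ± 107 (SD, n = 6) and 223 ± 36.1 (n = 3) in the 2 genotypes and Dusp1 at 549 ± 188 and 648 ± 172. Hspa5 was at 18054 ± 2080 and 14601 ± 576 (-0.30 ± 0.14), a difference of the size in BMDMs that did not pass (adjusted p = 0.91). Of 43 interferon-stimulated genes tested in RPE, 42 of them also tested in BMDMs, 6 changed, all higher, 40 were above 0 and the median was 0.63, against 0.02 for all genes tested there. They were Ifi44, Trim30a, Rtp4, Ifit1, Isg15 and Ifi27l2a, chosen after their values were seen, with log2 fold changes of 1.20 to 2.27. The difference between the effects in the 2 tissues, tested with edgeR over all 30 libraries, passed for 9 of 20873 genes (0.0431%), of which 6 are among the genes named by rule: Fosb, Dusp1, Tsc22d3, Bmpr1a, Cpne8 and Pcdhac2.

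In the fit of all libraries several lists had no changed member. Among 35 lysosomal genes, 24 of sterol synthesis, 15 LXR targets, 20 complement and Fc receptor genes, 19 of MHC class I and 12 of MHC class II presentation, 21 of matrix and proteases, 23 of adhesion and 12 of iron handling, 0 passed in limma. At an unadjusted p under 0.05 there were 6, 0, 5, 3, 4, 5, 3, 7 and 2, where 21.4% of all genes tested had such a p. When Mertk-/-V2 replicate 3 was left out, 7, 5, 9, 4, 6, 2, 4, 7 and 2 members of these lists passed, where 8.72% of all genes did, and all 9 LXR targets, 6 MHC class I genes and 5 sterol genes were higher. The medians of these lists in the fit of all libraries lay between -0.07 and 0.16.

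**Figure D5:**
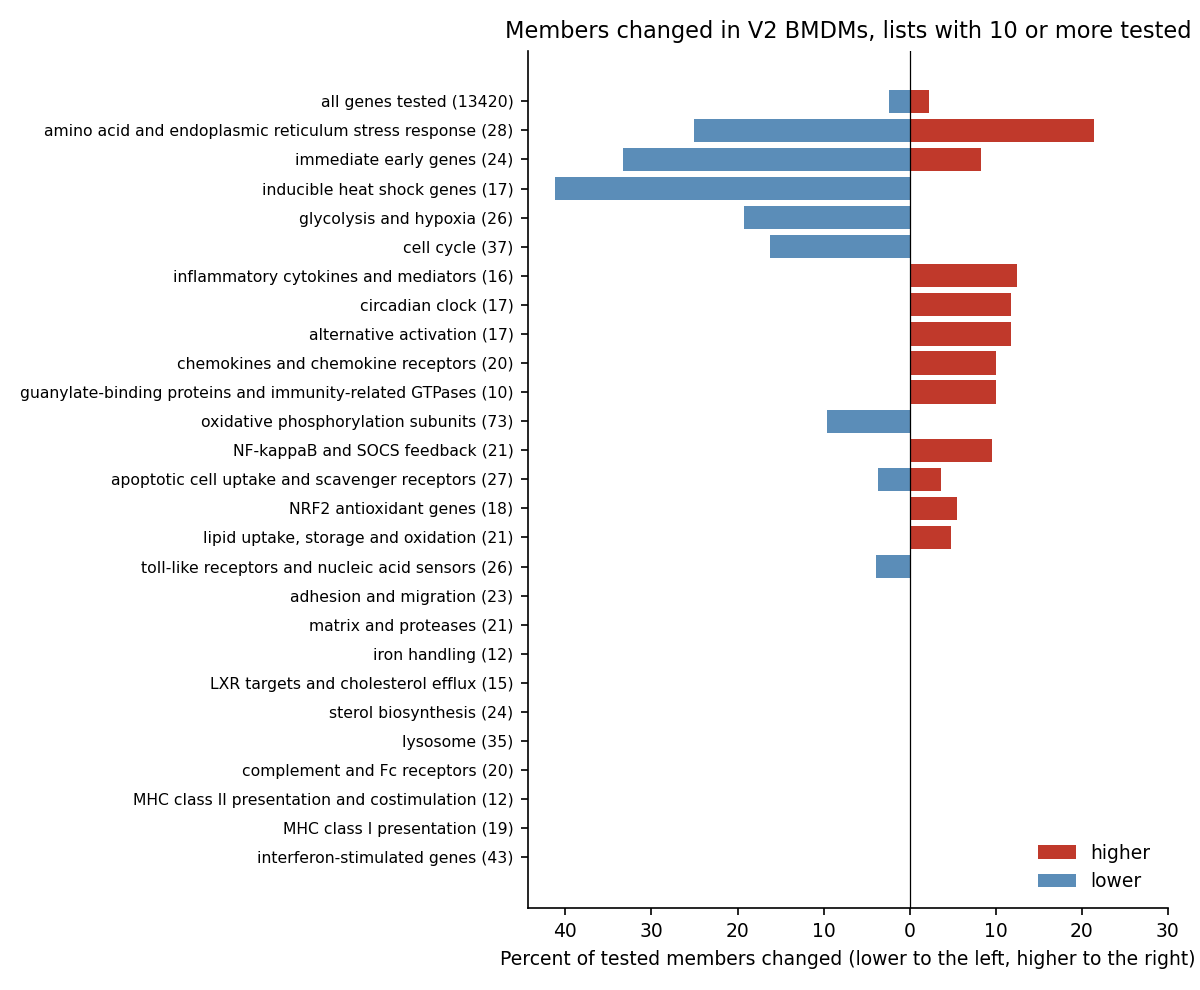
Percent of tested members that changed in Mertk-/-V2 (V2) against B6 WT BMDMs, with 1 row per list of 10 or more tested genes (number tested in parentheses), lower members as bars to the left of 0 and higher members to the right. All genes tested stand at 2.36% lower and 2.24% higher, the heat shock list at 41.2% lower, and the amino acid and ER stress list at 25% lower and 21.4% higher.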

How the data were processed

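RNA of 30 mouse samples had been sequenced as paired ends, trimmed, aligned to GRCm38 with STAR and normalized with DESeq2 by the authors; the counter, annotation release, versions and strand setting are not given in the sources used here. Values were deposited per library as a signal, gene counts divided by the DESeq2 size factor. Division by the smallest value above 0 returned whole reads for 100% of values (tolerance 0.1). The 12 BMDM libraries held 16629659 to 25653814 reads, and intervals or floors from reads (3 per library) cover counting error only. Gene names came from GENCODE release 21, which matched 55480 of 55573 identifiers. Differences were fitted with limma 3.58.1 in R 4.3.3 on log2(value + 1), with a trend, 1 mean per genotype over all 12 BMDM libraries, and genes with a mean of at least 10; fold changes on this scale understate those of low genes. A gene with a Benjamini-Hochberg adjusted p under 0.05 was called changed, and a DEG where it also differed by 2.38-fold or more. RPE was fitted in the same way over its 18 libraries, and differences between tissues with edgeR 4.0.16 on recovered reads. DESeq2 1.42.0 and edgeR on recovered reads were alternatives, and the steps were tested on simulated data. Named genes were the TAM genes, every DEG, the 15 changed genes per direction with the smallest adjusted p below the DEG fold (mean of at least 50, unnamed models left out), up to 6 changed members per list and direction, changed genes within 2 Mb of Mertk, and substrain and sex-linked genes. The members and lists were chosen with earlier results of these data known. Promoters are the 250 bases before RefSeq start sites (GRCm38.p6). A gene that the naming rule selected is not reported here.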

Additional observations from a re-analysis of the deposited data

Results flagged for a closer look

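For 6 named genes the effect of Mertk-/-V2 in RPE differed from that in BMDMs, by edgeR's quasi-likelihood test of the difference itself over all 30 libraries (n = 3 Mertk-/-V2 and 6 B6 WT libraries in RPE, 3 of each in BMDMs; adjusted over 20873 genes). Fosb and Dusp1, immediate early genes that fell in BMDMs, differed by 4.27 (adjusted p = 0.00987) and 3.18 (adjusted p = 0.0364) on the log2 scale, RPE minus BMDM, and Tsc22d3 by 1.04 (adjusted p = 0.00386). Cpne8, Pcdhac2 and Bmpr1a, DEGs that rose in BMDMs, differed by -3.08 (adjusted p = 0.000731), -1.64 (adjusted p = 0.000731) and -1.33 (adjusted p = 0.0192). In RPE these 3 genes were abundant and their mean levels similar in both genotypes: Cpne8 had 1031 ± 189 normalized counts in B6 WT (SD) and 1036 ± 50.3 in Mertk-/-V2, and Bmpr1a 4773 ± 164 and 4750 ± 229.

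In the 6 B6 WT RPE libraries, 1 library lay far above the others for Fosb, at 91.4 normalized counts against 29.8 to 43.8, and 1 for Ifi44, at 77.3 against 33 to 48.1. Of 16 genes examined in this way these 2 stood out, and chance marks about 1 in 20 groups.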

How the results depend on the processing

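None of the 113 named genes past the threshold reversed in the alternatives that gave it a value, but list medians near 0 changed sign and the counts moved with the fit. The chemokine median of -0.04 was 0.09 in edgeR, that of LXR targets -0.01 without Mertk-/-V2 replicate 1 and that of sterol genes 0.11 without Mertk-/-V2 replicate 3. Against 618 changed genes (301 higher, 317 lower) and 34 DEGs, a fit without the filter on low values gave 353 (187 higher, 166 lower), the 6 libraries alone gave 69 (39 and 30) with 12 DEGs, array quality weights gave 1182 (605 and 577) with 59 DEGs, and a covariate for Y-linked gene level gave 264 (136 and 128) with 18 DEGs. The Y-linked genes behind that covariate had almost no reads in the 6 libraries, so that fit does not measure a dependence on sex. DEGs numbered 22 with a pseudocount of 5, 13 with a mean of at least 50, and 21 in DESeq2. The cause was not tested, except that the 6 libraries alone leave fewer samples for the spread. Leaving out each library in turn gave 148 to 1168 changed genes (75 to 598 higher, 73 to 570 lower) and 19 to 60 DEGs. The leave-one-out fits of the other comparisons were chosen after seeing the data. They gave 34 to 68 genes for Mertk-/-V2 minus Mertk-/-V1, and 139 to 570 for Mertk-/-V2 minus Mertk-/-V3, where the lowest counts of 155, 149 and 139 came without Mertk-/-V3 replicates 1, 2 and 3. They gave 2 to 3 named genes in RPE, and 3 to 5 for the difference between tissues, 3 without Mertk-/-V2 replicate 1. Of 113 named genes past the threshold, 55 stayed past it without any 1 of the 6 libraries and 93 passed in both edgeR and DESeq2.

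The same-numbered libraries of the 2 genotypes did not deviate together (r = -0.174, -0.131 and -0.303 across genes, which are not independent replicates), so they share only a number; with the replicate block 305 genes changed (163 higher, 142 lower) and 24 were DEGs.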
